A study of Rattus norvegicus with 86 samples.

Results

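*Lrp4* (ENSRNOG00000015285), which encodes low-density lipoprotein receptor-related protein 4, was examined in the prelimbic cortex (PL) of 80 heterogeneous stock (HS) rats. It was chosen as a single gene by its identifier and is 1 of 17250 genes in the expression table. HS rats are an outbred population descended from several inbred strains, so that every animal carries its own mixture of their alleles. Each rat gave 1 RNA-Seq library, made from polyA RNA of the PL of both hemispheres, which was dissected from frozen sections. The rats had been group housed and had received no behavioral test or drug, so the study holds no treated group, and the comparisons that its labels allow are those between the sexes and between rat batches. The labels give 3 females and 11 males in batch 2, 13 females and 10 males in batch 3, 15 females and 11 males in batch 4, 1 female in batch 5 and 8 females and 8 males in batch 6. What was done together in a batch is not explained by the labels, and they give no age for single rats. Another 6 labelled samples had been removed by the study (3 as expression outliers, 2 for a genotype mismatch and 1 for a low read count) and were not analysed here.

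Lrp4 is a single-pass membrane protein of the low-density lipoprotein (LDL) receptor family. At the neuromuscular junction it is the receptor for agrin, a proteoglycan released by motor nerve endings, and on binding agrin it activates the muscle kinase MuSK, which gathers acetylcholine receptors under the nerve. Outside muscle it binds the Wnt inhibitors sclerostin and sostdc1 and so takes part in Wnt and BMP signalling in bone, tooth and limb, and in the brain it has been studied in astrocytes and at synapses. Agrin, MuSK and their partners Dok7 and rapsyn were not analysed here, because the name tables used pair no identifier with them, and no promoter or protein sequence of *Lrp4* was used.

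*Lrp4* was well expressed in every rat, within a narrow range. Values are log2 of the upper-quartile adjusted read count plus 1, and they averaged 10.35 ± 0.16 (SD, n = 80). The lowest rat had 9.96, the median was 10.37 and the highest rat had 10.76. On the scale of adjusted counts this was a mean of 1315 ± 147 (SD), from 992 to 1737, so the highest rat had 1.75 times the level of the lowest. No rat was near 0, and 65 of the 80 rats lay within 0.2 log2 units of the median. Levels of *Lrp4* are not set against levels of other genes here, because the counts are not divided by gene length.

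The number of reads behind each value was large. The scaling factor of each library could be recovered from the uneven pattern that rounding leaves among the adjusted counts. It gave 10174405 to 32643825 reads per library in the genes of the table, with a mean of 18667318 ± 3436084 (SD). At these depths *Lrp4* held a median of 1382 reads per library (range 682 to 2401), which gives a median counting SD of 0.039 log2 units if reads are taken as independent draws. After batch and sex were taken out, the SD of *Lrp4* between rats was 0.115 log2 units, so counting error of that size amounts to 11.3% of the residual variance and says nothing of error from dissection or library preparation. Among 1870 genes with a mean log2 value of 10 to 11, the median residual SD was 0.136 log2 units, and 31.6% of them varied less between rats than *Lrp4*.

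The rat batches differed in *Lrp4*. In batch 2, the lowest, the log2 value averaged 10.18 ± 0.13 (SD, n = 14), with a lowest, median and highest rat of 9.96, 10.19 and 10.38. In batch 3 it averaged 10.27 ± 0.10 (SD, n = 23), with a lowest, median and highest rat of 10.08, 10.27 and 10.46. Both batches therefore sat mostly under the median of all rats, which was exceeded by only 1 of 14 rats in batch 2 and by 5 of 23 in batch 3. The single rat of batch 5 had 10.40. Batch 4 averaged 10.43 ± 0.12 (SD, n = 26), with 10.19, 10.43 and 10.61 as its lowest, median and highest values. Batch 6, the highest, averaged 10.50 ± 0.11 (SD, n = 16), with 10.22, 10.48 and 10.76. In these batches 18 of 26 and 15 of 16 rats, respectively, exceeded the overall median.

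**Figure D1:**
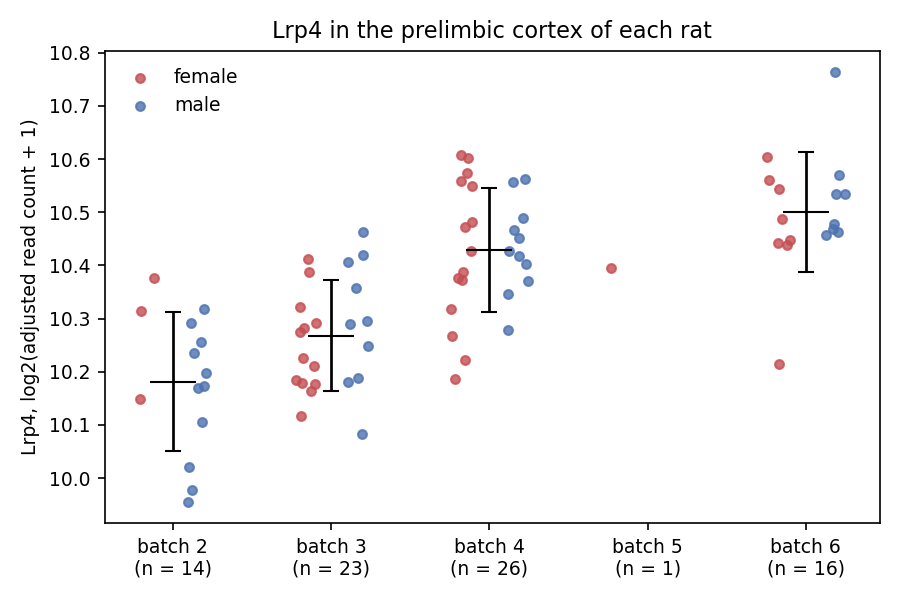
*Lrp4* in each of the 80 rats by rat batch, as log2 of the adjusted read count plus 1 (females red, males blue; horizontal bars with whiskers give the mean ± SD of a batch, except batch 5 with 1 rat). Batches 2 and 3 lie lower, with means of 10.18 and 10.27, than batches 4 and 6, with means of 10.43 and 10.50, and the ranges of batches 2, 3, 4 and 6 overlap.

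Over the 5 batches, with sex as a covariate, the moderated F-test of limma gave F = 19.9 for *Lrp4* (adjusted p = 4.09e-10, Benjamini-Hochberg over all 17250 genes). A difference between batches was the rule in this table, since 59.4% of all genes passed the same test, and *Lrp4* shared it with most genes. By size of the adjusted p, 935 genes (5.42% of the table) ranked before *Lrp4*. Batch accounted for 52.2% of the variance of *Lrp4* and sex for 0.52%. In bulk tissue, fewer cells that express a gene and less RNA per cell cannot be told apart, and this holds for every difference described here.

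The order of the batches was 2, 3, 4 and 6, and the differences between the 2 lowest and between the 2 highest batches did not pass. Batch 6 exceeded batch 2 by 0.32 log2 units (SE 0.04, adjusted p = 8.84e-09, limma), which is 1.25-fold, where 38.3% of all genes passed in either direction and 20.6% were higher in batch 6. The ranges overlapped, but 15 of the 16 rats of batch 6 lay above every rat of batch 2. The median absolute difference between these batches was 0.17 log2 units over all genes and 0.12 over genes with a mean log2 value of 10 to 11, and 90.2% of the latter differed by less than *Lrp4*. Batch 4 exceeded batch 2 by 0.25 log2 units (SE 0.04, adjusted p = 2.67e-07), with 37.2% of all genes passing. Batch 6 exceeded batch 3 by 0.23 log2 units (SE 0.04, adjusted p = 4.38e-07), with 49.9% of all genes passing. The step between batches 3 and 4 was 0.16 log2 units (SE 0.03, adjusted p = 2.67e-05), or 1.12-fold, with 51.7% of all genes passing. By contrast, batch 3 minus batch 2 was 0.09 log2 units (SE 0.04, adjusted p = 0.161, 95% interval 0.01 to 0.17 before adjustment), and 5.70% of all genes passed. Batch 6 minus batch 4 was 0.07 log2 units (SE 0.04, adjusted p = 0.272, 95% interval -0.0026 to 0.14 before adjustment), and 6.23% of all genes passed.

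Recovered depth and marker genes were also looked at by batch. Depth was 17125583 ± 2395121, 18286242 ± 4230299, 19982897 ± 3749149 and 18347949 ± 1371811 reads in batches 2, 3, 4 and 6 (mean ± SD). Whether depth differed between batches was not tested. With log2 depth as a covariate, batch 6 exceeded batch 2 in *Lrp4* by 0.32 log2 units (SE 0.04, adjusted p = 1.60e-08, limma). Marker genes of cell types were followed where the tables name them, which was the case for 14 of 63 listed markers. Over batches 6 of these 14 passed the test, where 59.4% of all genes did. Between batches 2 and 6, 3 were higher and 2 lower in batch 6, where 20.6% and 17.7% of all genes passed. Those lower in batch 6 were *Slc32a1*, the vesicular transporter of inhibitory neurons, by -0.41 log2 units (SE 0.07), and *Olig2*, a transcription factor of oligodendrocyte precursors, by -0.37 log2 units (SE 0.10). Those higher in batch 6 were *P2ry12* of microglia (0.33 log2 units, SE 0.10), *Rgs5* of mural cells (0.42, SE 0.07) and *Dcn* of the meninges (0.39, SE 0.13). *Dcn* did not pass the test over all batches. The 2 followed markers of microglia had a median summed adjusted count of 972 in batch 2 and 919 in batch 6. For the 2 of the meninges it was 841.5 and 817.5, and for the 2 of endothelial and mural cells 898.5 and 1051. The summed adjusted count of all markers but hemoglobin ran from 7446 to 8661, 7631 to 10146, 6461 to 9186 and 7206 to 8749 in batches 2, 3, 4 and 6. *Neurod6*, a transcription factor of excitatory cortical neurons, had 11.08 ± 0.14 in batch 2 and 11.05 ± 0.20 in batch 6 (log2, mean ± SD), and its adjusted p over batches was 0.758. No followed marker list summed to 0 in any rat, and the part of cell makeup in the batch difference of *Lrp4* was not tested.

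Males and females had nearly equal values of *Lrp4*. Females ranged from 10.12 to 10.61 with a median of 10.38, and males from 9.96 to 10.76 with a median of 10.36 (log2, n = 40 each), so the male range enclosed that of the females. With batch as a factor, males minus females was 0.01 log2 units (SE 0.03, 95% interval -0.04 to 0.07, adjusted p = 0.956, limma), in a comparison where 0.365% of all genes passed. Within batches the difference had no constant sign, with -0.12 (SE 0.08), 0.04 (SE 0.05), 0.01 (SE 0.04) and 0.07 (SE 0.06) log2 units in batches 2, 3, 4 and 6. The sex-by-batch interaction of *Lrp4* had F = 1.57 (adjusted p = 1.00, p = 0.205 unadjusted, limma over the 79 rats of these batches). In that test 0.00% of all genes passed after adjustment, and 2.38% had an unadjusted p under 0.05.

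Genes that rose and fell with *Lrp4* from rat to rat were then sought, after batch and sex had been taken out of all genes. Of 17249 other genes, 547 passed (3.17%; limma, each gene regressed on *Lrp4*, Benjamini-Hochberg over all of them), 286 of them (1.66%) higher and the rest (1.51%) lower in rats with more *Lrp4*. A permutation test of Pearson's r, in which *Lrp4* was permuted within batches 100000 times, called 550 genes, and the same test of Spearman's rho called 349. These counts depend on which rats and terms are used. With library scaling by median of ratios there were 949 genes, 359 higher and 590 lower. With 20 expression principal components in place of batch and sex there were 37, 35 of them higher, and 20 of the 37 were among the 547. Leaving out batch 2 left 6 genes, leaving out batch 3 left 36 and leaving out batch 4 left 129, whereas leaving out batch 6 gave 695.

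Among 2715 named genes with a mean log2 value of at least 5, 58 passed in the higher and 45 in the lower direction (3.79% in all). Names came only from the study's tables of cis-eQTLs (variants near a gene that go with its expression), so these genes are not a random part. The highest r belonged to *Plxnb1*, which encodes plexin B1, a receptor for semaphorins. Its r with *Lrp4* was 0.59 and its rho 0.55 (permutation p = 1e-05 for each, as small as 100000 permutations allow, and adjusted p = 0.00908 for r). Its log2 value was 10.11 ± 0.22, 10.30 ± 0.23, 10.53 ± 0.14 and 10.58 ± 0.16 in batches 2, 3, 4 and 6 (mean ± SD), the same order as *Lrp4*. Within batches r was 0.70, 0.53, 0.68 and 0.44 in batches 2, 3, 4 and 6, and without the 2 rats farthest from the *Lrp4* median it was 0.59. A rat with 1 log2 unit more *Lrp4* was fitted with 0.97 log2 units more *Plxnb1* (SE 0.15, adjusted p = 0.000199, limma). *Plxnb1* was also the only one of the 20 genes named here that still passed without batch 2 (adjusted p = 0.0146).

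**Figure D2:**
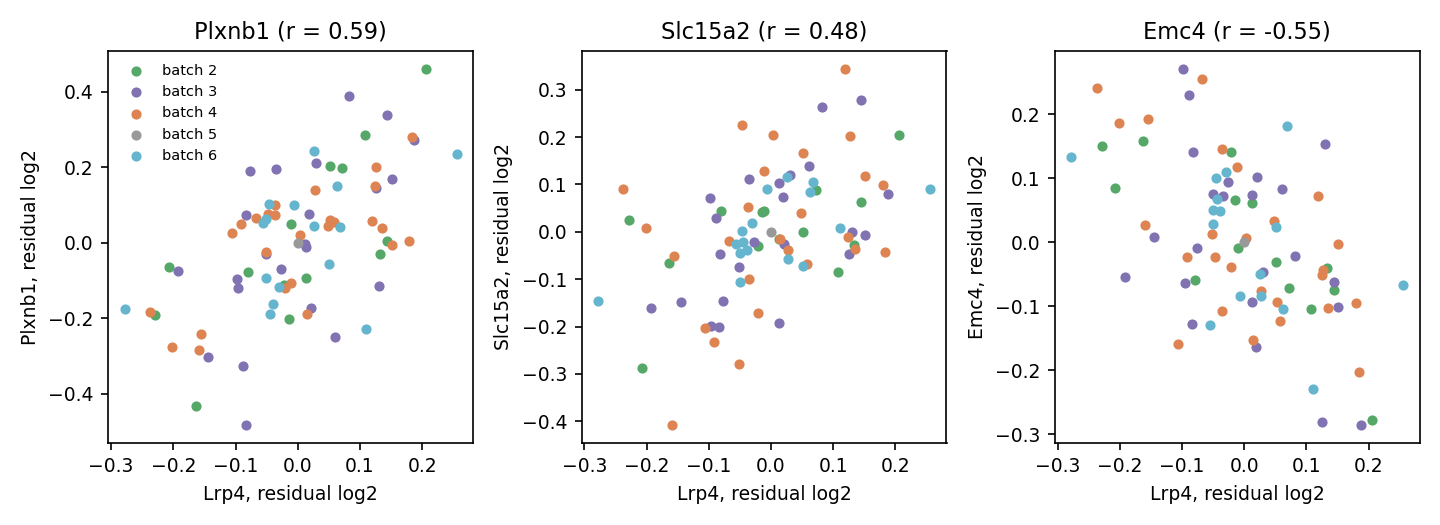
Residual log2 values of *Plxnb1*, *Slc15a2* and *Emc4* (vertical axes) against those of *Lrp4* (horizontal axes) after batch and sex were taken out, with 1 point per rat colored by batch. *Plxnb1* (r = 0.59) and *Slc15a2* (r = 0.48) are higher and *Emc4* (r = -0.55) is lower in rats with more *Lrp4*, with wide scatter; the single rat of batch 5 sits at 0 by construction.

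Next by r came genes of several roles. *Fat1*, a giant atypical cadherin, had r = 0.53, with values within batches from 0.26 to 0.84. *Col27a1*, a fibrillar collagen chain, had r = 0.49, and *Tnc*, the matrix glycoprotein tenascin C, had r = 0.44. For *Tnc* the value within batch 3 was 0.01, against 0.78 in batch 2. *Slc15a2*, a proton-coupled transporter of small peptides, had r = 0.48, with 0.39 to 0.63 within batches. *Carmil1*, a regulator of actin capping, and *Nwd1*, a protein with NACHT and WD repeat domains, both had r = 0.47, as did *Nynrin*. *Dpy19l3*, which attaches mannose to tryptophan residues, had r = 0.44, and the clone-named gene model AABR07035437.1 had r = 0.49. These 10 genes ended at *Tnc* (r = 0.440), with *Acacb* (r = 0.437) just outside.

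At the other end, *Emc4*, a subunit of the complex that inserts proteins into the membrane of the endoplasmic reticulum, had r = -0.55 (rho = -0.50, adjusted permutation p = 0.00908 for r). Its log2 value fell from 10.45 ± 0.12 in batch 2 to 10.18 ± 0.11 in batch 6 (mean ± SD), opposite to *Lrp4*, and its r was -0.78, -0.41, -0.59 and -0.46 within batches 2, 3, 4 and 6. *Prdx5*, a peroxiredoxin, had r = -0.51, with -0.65 to -0.35 within batches. *Pdhb*, a subunit of pyruvate dehydrogenase, had r = -0.47. *Cox7a2l2*, named for its likeness to a cytochrome c oxidase subunit, had r = -0.46. *Ndufb8*, a subunit of respiratory complex I, had r = -0.45 over all rats but 0.04 within batch 6. *Cend1*, a protein of neurons leaving the cell cycle, also had r = -0.45, with -0.83 in batch 2 and -0.11 in batch 6. *Mrpl35*, a protein of the mitochondrial ribosome, had r = -0.44, and its rho did not pass after adjustment (rho = -0.37, adjusted permutation p = 0.0592). *Tomm5* of the mitochondrial import pore and *Glrx5* of iron-sulfur cluster assembly had r = -0.42 each, and *Pcp4l1* had r = -0.414. *Pak1* lay just outside these 10, with r = -0.413.

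All 20 genes passed both the limma test (adjusted p from 0.000199 to 0.0279) and the permutation test of r (adjusted p from 0.00908 to 0.0284). Their rho was 0.41 to 0.55 and -0.50 to -0.37, and 19 passed the permutation test of rho. The genes were chosen for their r over these same rats, so their values within batches are a description. In 19 of the 20 the sign of r was the same within each of the 4 batches that hold several rats, and without the 2 rats farthest from the median r was 0.419 to 0.592 for the positive and -0.531 to -0.400 for the negative genes. The median r of the 10 positive genes was 0.65, 0.50, 0.47 and 0.44 within batches 2, 3, 4 and 6. All 20 also differed between batches, where 59.4% of all genes did. Of the 10 with positive r, 8 were higher in batch 6 than in batch 2, and all 10 with negative r were lower in batch 6. Over all genes 20.6% were higher and 17.7% lower in batch 6.

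**Figure D3:**
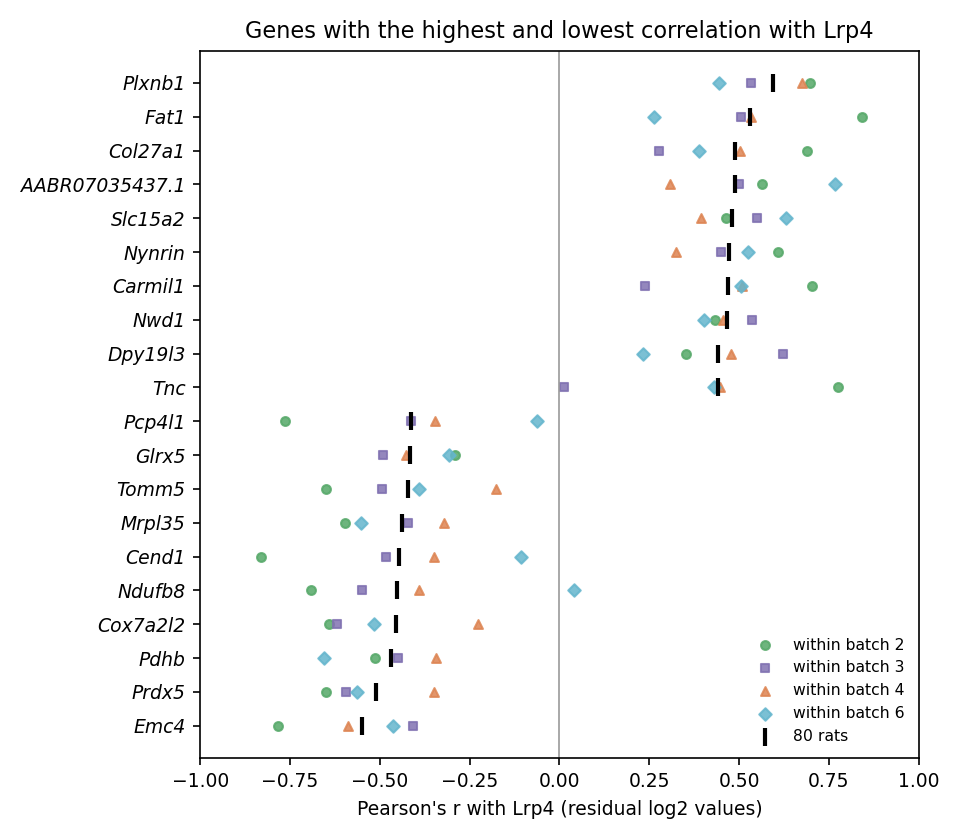
Pearson's r with *Lrp4* (horizontal axis) for the 10 named genes with the highest and the 10 with the lowest r, over all 80 rats (black bars) and within batches 2, 3, 4 and 6 (colored symbols). In 19 genes all 4 batches lie on the same side of 0, while *Ndufb8* reaches 0.04 in batch 6.

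With 20 principal components in place of batch and sex, all 20 genes kept their direction but only *Slc15a2* and AABR07035437.1 still passed (adjusted p = 0.0191 for each, limma). In that fit 5 named genes passed, all of them higher with more *Lrp4*. They were these 2 genes, *Glud1*, which encodes the mitochondrial enzyme glutamate dehydrogenase (adjusted p = 0.000309), *S1pr1*, a receptor for sphingosine 1-phosphate (adjusted p = 0.00492), and *Zc3h7b*, a zinc finger protein (adjusted p = 0.0166). With batch and sex as terms, *Glud1* had r = 0.31 and *S1pr1* r = 0.32, and neither passed the limma test (adjusted p = 0.0831 and 0.0800). *Glud1*, *S1pr1* and *Zc3h7b* were picked out after their values had been seen.

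The residual of *Lrp4* was also set against 6 measures of the libraries, with p-values adjusted over the 6 permutation tests. The leading principal component of the residuals of all genes, which held 6.02% of their variance, went with *Lrp4* at r = 0.30 and rho = 0.34 (p = 0.00681 and 0.00256, adjusted p = 0.0409 and 0.0154). Its r was 0.50, 0.49, 0.25 and -0.04 within batches 2, 3, 4 and 6, and 0.37 without the 2 rats farthest from the median of that component. Residual principal components 2 and 3 had r = 0.23 and 0.01 with *Lrp4* (adjusted permutation p = 0.133 and 0.937). The sign of a component is arbitrary, and each was turned so that its r with *Lrp4* over all rats is positive. Recovered depth had r = 0.06 with *Lrp4* (adjusted permutation p = 0.707), but -0.42 within batch 2 and 0.44 within batch 3. The share of counts in the 10 highest genes had r = -0.20 (adjusted permutation p = 0.135), and the share of genes at 0 had r = -0.09 (adjusted permutation p = 0.668). The part of that leading component in the correlations of single genes with *Lrp4* was not tested.

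Of the agrin pathway, 3 of 26 listed genes could be followed, and all 3 differed between batches and were lower in batch 6 than in batch 2, opposite to *Lrp4*. Over all genes 59.4% differed between batches and 17.7% were lower in batch 6, and 3 genes are too few to say anything of the pathway. *Prss12* encodes neurotrypsin, a protease that cleaves agrin, and its log2 value was 7.89 ± 0.66 in batch 2 and 7.43 ± 0.53 in batch 6 (mean ± SD). *Dnaja3*, a cochaperone that binds MuSK, had 10.31 ± 0.08 and 10.24 ± 0.08. *Pak1*, a kinase of the actin cytoskeleton that acts downstream of MuSK in muscle, had 12.56 ± 0.09 and 12.42 ± 0.10. From rat to rat *Pak1* was also lower with more *Lrp4*, at r = -0.41 and rho = -0.39 (adjusted permutation p = 0.0239 and 0.0391, limma adjusted p = 0.0279), with -0.41, -0.11, -0.55 and -0.43 within batches 2, 3, 4 and 6. *Pak1* no longer passed the limma test with 20 principal components (adjusted p = 0.360) or without batch 2, 3 or 4 (adjusted p = 0.174, 0.0681 and 0.173). *Prss12* (r = -0.12, rho = -0.09) and *Dnaja3* (r = -0.22, rho = -0.23) did not pass.

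Of the LDL receptor family and its helpers, 8 of 28 listed genes could be followed, and 6 of them differed between batches, where 59.4% of all genes did. Between batches 2 and 6, 5 were higher in batch 6 and 1 was lower, where 20.6% and 17.7% of all genes passed. The receptors *Vldlr*, which binds reelin, and *Lrp2*, the large endocytic receptor megalin, were higher in batch 6 by 0.30 (SE 0.06) and 1.11 (SE 0.21) log2 units, and *Lrp11* was lower by -0.14 (SE 0.03). The intracellular adaptors *Dab1* and *Dab2* and the ligand *Reln* were higher in batch 6 by 0.18 (SE 0.04), 0.56 (SE 0.10) and 0.17 (SE 0.06) log2 units. From rat to rat none of the 8 passed the limma test with *Lrp4*, where 3.17% of all other genes did, and their median r was 0.17, beside 0.03 over all other genes. *Dab1*, which relays the reelin signal, came nearest, at r = 0.36 and rho = 0.38, with adjusted p = 0.0568 by limma and 0.0493 for r and 0.0472 for rho by permutation. Its r was 0.35, 0.57 and 0.33 within batches 2, 3 and 4 but -0.01 within batch 6. The limma adjusted p of *Dab1* was 0.478 with 20 principal components and 0.191, 0.370 and 0.143 without batch 2, 3 and 4. It was 0.0434 without batch 6 and 0.0448 over genes with a mean log2 value of at least 5.

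Of the Wnt and BMP list, 13 of 63 genes could be followed. In the test over batches 4 of them passed, where 59.4% of all genes did, and 2 were higher and 2 lower in batch 6 than in batch 2, where 20.6% and 17.7% of all genes passed. *Apc*, the scaffold of the complex that degrades beta-catenin, was the only one of the 13 that passed with *Lrp4* from rat to rat, at r = 0.42 and rho = 0.40 (adjusted permutation p = 0.0228 and 0.0341, limma adjusted p = 0.0189), in a test that 3.17% of all other genes passed. Its r was 0.46, 0.40, 0.55 and 0.32 within batches 2, 3, 4 and 6, and 0.45 without the 2 rats farthest from the *Lrp4* median. *Apc* no longer passed the limma test with 20 principal components (adjusted p = 0.0638) or without batch 2, 3 or 4 (adjusted p = 0.115, 0.106 and 0.106). The median r of the 13 genes was 0.05, from -0.21 for *Dkk3*, a secreted glycoprotein of the Dickkopf family, to 0.42 for *Apc*. None of the 14 cell type markers passed the same test. Their r ran from -0.34 for *Olig2* (limma adjusted p = 0.0601) to 0.17 for *Dcn*, and *Aldh1l1*, the marker of astrocytes followed here, had r = 0.13.

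No gene followed next to *Lrp4* passed the test with it from rat to rat. In the RefSeq annotation of GRCr8, 35 other genes, 22 of them protein coding, had starts within 500 kb of that of *Lrp4*. Of these, 9 had an identifier here, and the rest were not followed. By limma 0 of the 9 passed with *Lrp4*, where 3.17% of all other genes did. Their r ran from -0.27 for *Pacsin3*, a protein of membrane trafficking (unadjusted permutation p = 0.017, adjusted p = 0.133), to 0.30 for *Ambra1*, a regulator of autophagy (unadjusted permutation p = 0.00961, adjusted p = 0.105). Over batches 7 of the 9 passed, where 59.4% of all genes did, and between batches 2 and 6, 2 were higher and 1 lower in batch 6, where 20.6% and 17.7% of all genes passed. Those higher were *Nr1h3*, which encodes the nuclear receptor LXR alpha, by 0.44 log2 units (SE 0.13), and *Acp2*, a lysosomal acid phosphatase, by 0.13 (SE 0.05). *Pacsin3* was lower by -0.27 (SE 0.08). No gene of the table had values identical to those of *Lrp4*.

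**Figure D4:**
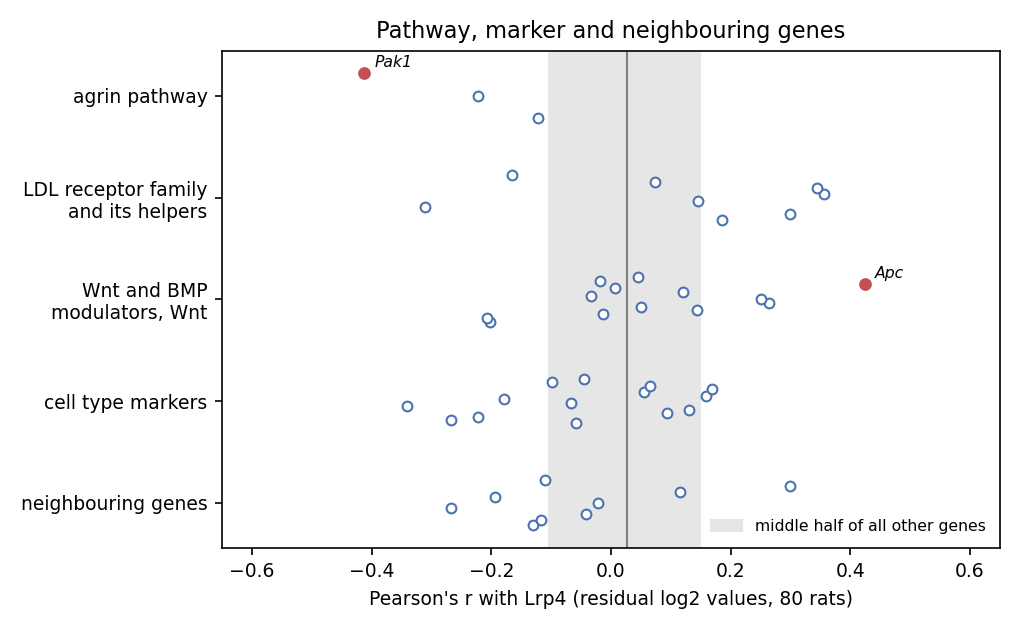
Pearson's r with *Lrp4* over 80 rats (horizontal axis) for the listed pathway genes, cell type markers and neighbouring genes that could be followed, 1 circle per gene, filled red where the limma test passed. The grey band holds the middle 50% of the 17249 other genes and the grey line their median of 0.03; only *Pak1* and *Apc* are filled.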

How the data were processed

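After adapter trimming (cutadapt), the authors used RSEM and Ensembl rat transcripts (Rnor_6.0) to estimate gene counts, applied an upper-quartile adjustment in DESeq2, and deposited log2 values of the rounded, adjusted counts with a pseudocount of 1. Tool versions for these steps are not given in the sources used here. Because the values were adjusted, no count test was run.

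The sexes, rat batches and removed samples came from the labels of 86 samples, of which 80 had a column. Batches were compared with limma 3.58.1 in R 4.3.3 (lmFit, eBayes with a variance trend) with sex as a covariate, sexes with batch as a factor, and every other gene was regressed on *Lrp4* with both. All 80 rats entered these fits, the single rat of batch 5 included, and 79 entered the interaction test. The threshold was an adjusted p of 0.05. Pearson's r and Spearman's rho were computed on residuals of batch and sex, with two-sided tests of 100000 permutations within batches (Python 3.11.15, numpy 2.4.6, scipy 1.17.1, pandas 2.3.3; figures by matplotlib 3.10.9). The recovery of scaling factors, the limma fits and the permutation test were checked on simulated data. Rats are separate animals, so p-values measure the spread between animals. In comparisons of batches, the batch means are set against the spread of rats within batches, and how batches vary is not measured. The paper reports several pairs among its rats that appear closely related, which no fit here took into account. The 95% intervals are normal approximations from the standard error.

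Depth is the sum of adjusted counts over the genes of the table divided by the factor, and the lowest factor recovered was 0.5595. Scaling factors between 0.55 and 2.2 were searched in steps of 0.0005 on adjusted counts up to 300. This range had been narrowed in earlier work on these data with the study's stated depth in view.

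Tables of the study pair 3292 identifiers (19.1%) with names, and other genes were left unnamed. These tables list cis-eQTLs, which are variants near a gene that go with its expression in a brain region. The named genes, *Lrp4* itself among them, are therefore not a random part of all genes, and this holds for listed genes, markers and neighbours too. *Lrp4*, the 10 named genes with the highest and the 10 with the lowest r (mean log2 value of at least 5), listed genes that passed, and genes within 500 kb were described. The gene and all lists were chosen with earlier results of these data known. Other genes named are said to be so. RefSeq gene order on GRCr8 was used only to find neighbours. Alternatives changed covariates, scaling, pseudocount (10), filter and rats.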

Additional observations from a re-analysis of the deposited data

Results flagged for a closer look

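In batch 6 a rat at each end stood apart from its sex. The lowest female had an *Lrp4* log2 value of 10.22, where the next female had 10.44, and this gap was 0.573 of the range of the 8 females. The highest male had 10.76, where the next male had 10.57, a gap of 0.629 of the range of the 8 males. Both gaps exceed the limit of 0.526 that Dixon's test sets for 8 values, while neither end of the 10 males of batch 3, the only other group of 4 to 10 rats, did so. Chance alone passes about 1 in 20 groups. Without both rats, F over batches was 21.2 (adjusted p = 1.99e-10, limma), batch 6 exceeded batch 2 by 0.32 log2 units (SE 0.04, adjusted p = 9.49e-09), and 537 genes covaried with *Lrp4*. The libraries of these rats held 18400289 and 16422576 recovered reads, and the latter, of the male, was the lowest depth in batch 6.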

How the results depend on the processing

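The batch difference of *Lrp4* passed in all 9 alternative fits (F from 14.02 to 26.5, adjusted p up to 6.64e-09, limma) and in all 80 fits that left out 1 rat (F from 18.8 to 26.5). Each pair of batches kept its direction and its side of the threshold in all 8 alternatives, and batch 6 minus batch 2 ranged from 0.31 to 0.32 log2 units. The sex difference, 0.01 log2 units, turned to -0.0233 without a batch term and to -0.000384 without the 2 rats of batch 6 that stand apart (a setting chosen after seeing the data), was 0.00636 to 0.0244 on leaving out 1 rat, and never passed. The 547 genes that covary with *Lrp4* became 8880 without batch and sex terms, 37 with 20 principal components, 949 with median-of-ratios scaling, and 6, 36 and 129 without batch 2, 3 and 4. The cause of these changes was not tested. In the other 7 alternatives, among them the fit without batch 6 with 695 genes, the count stayed within 1.5 times the main value. Of the 20 named genes, 20 kept their direction in each fit, but 1 passed without batch 2, 6 without batch 3 and 15 without batch 4. The r of *Ndufb8* turned to 0.0411 within batch 6. Median-of-ratios scaling shifted the median gene by -0.01 log2 units. No paired analysis was possible because replicate numbers only follow the order of the labels and pair no rats. Depth limits *Lrp4* little, at 682 reads or more per library, but genes with few reads are measured less closely, and most pathway genes were not analysed here.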
